A study of Mus musculus with 2 samples.

Results

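Fibroblasts positive for Ntrk3, Bdkrb1 or Lrrtm3 were examined among sorted mesenchymal cells of the mouse large intestine. They were selected on measured counts of unique molecular identifiers (UMIs, 1 per captured transcript). A barcode was kept with at least 1000 UMIs, at least 500 genes and at most 10% mitochondrial UMIs. A kept barcode was called rule-positive when its Ntrk3, Bdkrb1 and Lrrtm3 UMIs summed to at least 2, with no Ptprc UMI, at most 1 Pi16 UMI and at least 1 UMI of Col1a1 or Col3a1. The rule took 1095 of 27768 kept barcodes, 647 of 12702 (5.09%) in the ff library and 448 of 15066 (2.97%) in the GF library.

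The series has 1 library of 3' droplet single-cell RNA per group. Both held large-intestine mesenchymal cells sorted without CD45, EpCAM or CD31 and with gp38, the surface protein podoplanin. The ff library came from C57BL/6 mice and the GF library from Balb/c mice. The design text names adult mice and germ-free mice, and ff is nowhere spelled out, so strain, housing and library cannot be told apart. No transgene or further treatment is stated for either library, and how many mice made up a library is not stated. With 1 library per group there is no replicate check, and no test between groups was made.

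Ntrk3 encodes TrkC, the receptor tyrosine kinase that binds neurotrophin-3. Bdkrb1 encodes the bradykinin B1 receptor, a G protein-coupled receptor for kinin peptides that is known to be induced in inflamed tissue. Lrrtm3 encodes a leucine-rich repeat membrane protein known as a synaptic adhesion molecule. Ccn5 is a secreted matricellular protein of the CCN family, and Chrdl1 is a secreted antagonist of bone morphogenetic proteins (BMPs). In the colon, fibroblasts close to the epithelium make BMP ligands, while fibroblasts below the crypts make BMP antagonists and R-spondins, which favour the stem cell zone.

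On GRCm38, the assembly also called mm10, Ntrk3 lies on chromosome 7 from 78175959 to 78738012 on the minus strand. Bdkrb1 lies on chromosome 12 from 105603085 to 105605428 on the plus strand. Lrrtm3 lies on chromosome 10 from 63928472 to 64090277 on the minus strand, inside the larger gene Ctnna3 on the plus strand. Ccn5 lies on chromosome 2 from 163820861 to 163833146 on the plus strand, and Chrdl1 on chromosome X from 143285674 to 143394262 on the minus strand. The labels do not say whether the counting used strand, so reads of Lrrtm3 and Ctnna3 may not be told apart.

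Rule-positive cells were slightly deeper than the other kept barcodes of their library. Median UMIs per cell were 9457 against 8954 in ff and 6823.5 against 6457.5 in GF. Median mitochondrial shares were 3.02% against 3.19% in ff and 3.54% against 4.22% in GF. Scrublet, a doublet caller, marked 5.41% of rule-positive and 4.17% of other cells in ff; in GF it marked 5.804% and 5.07%; the marked cells were kept. The 2 libraries shared 55 cell barcodes, and 0 of them were rule-positive in both.

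The share of rule-positive cells stood in a different order after thinning. At each cell's own depth it was 5.09% in ff and 2.97% in GF. After every cell was thinned to 4000 UMIs and the rule applied again, it was 2.12% in ff and 2.28% in GF, with shallower cells left out. Thinning lowers Pi16 and Ptprc counts too, so cells barred at full depth could pass when the rule was applied again. Of thinned cells rule-positive at full depth, 228 of 620 in ff and 211 of 397 in GF kept a sum of at least 2. No order of the libraries by this share was therefore read. Many cells stood close to the threshold: 359 ff and 227 GF cells stood just inside it with a sum of 2, and 1228 ff and 785 GF cells that met the other conditions stood just outside with a sum of 1.

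The cells carried fibroblast RNA. A list of 9 fibroblast markers (such as Dcn, Lum and Pdgfra) summed to 31255 CPM in rule-positive and 25739 CPM in other cells of ff, and to 32323 and 24912 CPM in GF. CPM here is UMIs summed over cells per 1000000 UMIs. Marker lists of other cell types were low but not at 0. Of 7 markers of glia, 4 had UMIs in the rule-positive cells of each library, and they summed to 1.73 against 2.68 CPM in ff and 2.48 against 4.40 CPM in GF (Sox10, Gfap and Foxd3 were at 0). Of 6 markers of neurons, 3 had UMIs in ff and 2 in GF, summing to 4.09 against 6.77 CPM and to 3.72 against 5.59 CPM. Of 6 markers of blood endothelium, 5 had UMIs and Cdh5 had none, with sums of 14.6 against 33.2 CPM in ff and 29.8 against 50.1 CPM in GF. Of 6 markers of B and plasma cells, 3 had UMIs, with sums of 7.08 against 237 CPM and 3.41 against 221 CPM. The T and innate lymphoid list summed to 322 against 328 CPM in ff and 306 against 371 CPM in GF, of which Rora, a nuclear receptor, made up 321 and 291 CPM in rule-positive cells. The 6 smooth muscle markers, all with UMIs, summed to 106 against 221 CPM in ff and 168 against 285 CPM in GF. The 4 haemoglobin genes of red blood cells (all with UMIs in rule-positive cells of ff, 2 of them in GF) summed to 69.7 against 162 CPM in ff and 0.620 against 169 CPM in GF, and their part in the results was not tested. At least 2 haemoglobin UMIs were found in 0.155% of rule-positive and 0.274% of other cells in ff, and in 0% and 0.0547% in GF. The median cell held none, so these sums are not the level of a typical cell.

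The values of the counted genes are a description, since they chose the cells. Bdkrb1 stood at 205 CPM in rule-positive and 13.7 CPM in other cells of ff, and at 211 and 16.1 CPM in GF. Lrrtm3 stood at 65.9 and 5.58 CPM in ff and at 105 and 8.56 CPM in GF. Ntrk3 stood at 27.2 and 2.60 CPM in ff and at 122 and 9.88 CPM in GF. Bdkrb1 was thus nearly equal in both libraries, while Ntrk3 was far lower in ff. The other conditions left Pi16 at 12.1 against 200.3 CPM in ff and 47.4 against 433 CPM in GF, and Ptprc at 0 UMIs in both.

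Ccn5, which gives the working name of these cells, was held weakly by the rule-positive cells of ff. Its level there was 6.76 CPM (95% exact Poisson interval 4.89 to 9.11) against 4.45 CPM in the other kept barcodes, a log2 ratio of 0.51. In GF it was 28.5 CPM (22.99 to 34.98) against 11.9 CPM, a log2 ratio of 1.19. Ratios are taken after adding 1 CPM, which understates those of low genes. A Ccn5 UMI was found in 4.64% of rule-positive cells in ff and 11.6% in GF. Most of them had none, so the cells are named here by the rule and not by Ccn5.

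Other fibroblast sets held Ccn5 at similar or higher levels. Cells with at least 2 Pi16 UMIs, a gene of adventitial fibroblasts, held 16.7 CPM in ff and 28.2 CPM in GF. Cells with at least 2 Angptl1 and Ackr4 UMIs held 20.6 and 44.6 CPM. Cells with at least 2 Myoc, Gdf10 and Wt1 UMIs held 14.5 and 23.2 CPM. In ff all 3 sets were above the rule-positive cells. In GF the Angptl1 and Ackr4 set was above them, and the other 2 lay within their interval. The Pi16 and the Angptl1 and Ackr4 sets share 845 ff and 966 GF cells.

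Chrdl1 followed the rule more closely than Ccn5 in ff. It stood at 31.1 CPM (26.95 to 35.79) in rule-positive and 15.2 CPM in other cells of ff, a log2 ratio of 0.99. In GF it stood at 62.9 CPM (54.57 to 72.21) and 24.3 CPM, a log2 ratio of 1.34. A Chrdl1 UMI was found in 19.2% of rule-positive cells in ff and 30.1% in GF. The Angptl1 and Ackr4 set again held as much or more, at 59.4 CPM (ff) and 63.9 CPM (GF). The Pi16 set held more in ff, at 45.7 CPM, and less in GF, at 48.5 CPM. The Myoc, Gdf10 and Wt1 set held less in both, at 14.6 and 11.7 CPM.

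Both ratios depended on the cells set beside them. Against only those barcodes that met the Ptprc, Pi16 and collagen conditions (9800 in ff and 8884 in GF), the log2 ratio of Ccn5 was 1.49 in ff and 2.78 in GF, and that of Chrdl1 was 1.77 in ff and 2.27 in GF. Those barcodes lack the Pi16-rich cells, in which both genes were high.

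**Figure D1:**
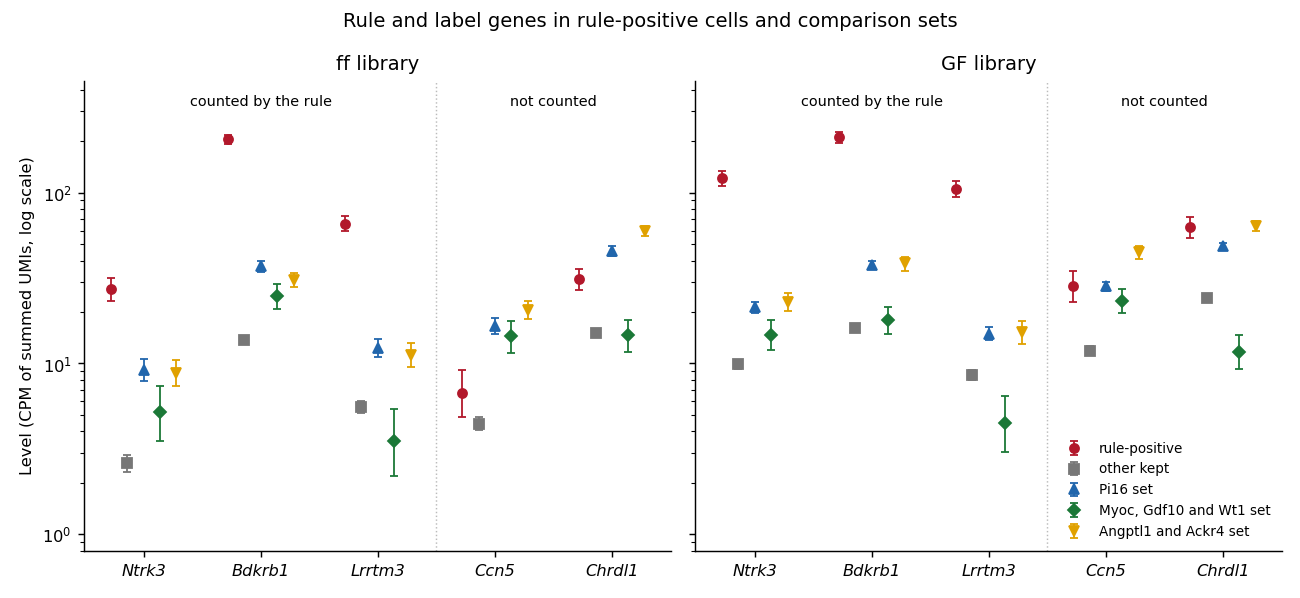
Levels of the 3 genes the rule counts (Ntrk3, Bdkrb1, Lrrtm3) and the 2 it does not (Ccn5, Chrdl1) in rule-positive cells, the other kept barcodes and 3 fibroblast sets, as CPM on a log axis, with ff on the left and GF on the right. Points are summed levels and bars 95% exact Poisson intervals. In ff, Ccn5 of the rule-positive cells (6.76 CPM) lies below all 3 fibroblast sets.

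Free RNA in droplets can give a cell UMIs of a gene it does not express, so the same shares were read in kept barcodes with a UMI of Ptprc, a leukocyte gene. A Col3a1 UMI was found in 65.4% of these barcodes in ff and 32.0% in GF, at 1980 and 1562 CPM. How much of this came from barcodes that mix 2 cells was not tested, so their shares may exceed a background of free RNA alone. After thinning to 4000 UMIs, a Ccn5 UMI was found in 2.42% of rule-positive, 1.21% of other and 0.794% of Ptprc-positive cells in ff. In GF the shares were 8.31%, 2.62% and 1.42%. The exact interval of the rule-positive share in ff, from 1.36% to 3.96%, overlaps that of the Ptprc-positive cells, from 0.0201% to 4.34%, which rests on 1 of 126 cells. Chrdl1 was found in 11.5% of rule-positive and 1.59% of Ptprc-positive cells in ff, and in 21.2% and 3.12% in GF. By thinned shares Ccn5 in ff was therefore not separable from the Ptprc-positive cells, while Chrdl1 in both libraries and Ccn5 in GF lay above them. At full depth the Ccn5 level of ff, 6.76 CPM (4.89 to 9.11), lay above that of Ptprc-positive cells, 0.647 CPM (0.0164 to 3.60, from 1 UMI). Median UMIs of the Ptprc-positive cells were 7169 in ff and 2907 in GF before thinning. Thinning left out 27 ff and 51 GF rule-positive cells and 953 ff and 3179 GF other cells. It also left out 36 of 162 ff and 958 of 1311 GF Ptprc-positive cells, and before it a Ccn5 UMI was found in 0.617% and 0.763% of them.

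The counted genes tended to occur in the same cells. Among cells thinned to 4000 UMIs that met the other conditions, whatever their sum (10214 in ff and 8676 in GF), Bdkrb1 was found in 19.8% of cells with a Ntrk3 UMI and 6.81% of those without in ff, and in 27.1% and 3.94% in GF. Lrrtm3 was found in 14.05% and 2.93% in ff, and in 12.4% and 3.15% in GF. Ccn5 was found in 5.79% and 0.684% in ff, and in 9.80% and 1.09% in GF. Ntrk3 was present in 121 ff and 306 GF cells, so the smaller overlaps rest on few cells, with 7 and 30 for Ccn5. Thinning lowers Pi16 counts, so cells barred at full depth may be among the cells compared. Their part in the overlaps was not tested.

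Levels of some genes moved stepwise with the number of rule UMIs. Over sums of 0, 1, 2, 3 to 4 and 5 or more, Chrdl1 read 6.89, 18.5, 25.3, 36.8 and 41.4 CPM in ff. In GF it read 10.9, 25.0, 45.2, 77.8 and 89.5 CPM. Ccn5 read 2.09, 14.9, 19.3, 36.0 and 42.9 CPM in GF, and 1.32, 4.57, 7.27, 4.65 and 10.4 CPM in ff. The order was the same in both libraries for Chrdl1, while Ccn5 in ff stepped down once between sums of 2 and of 3 to 4. Cells just outside the rule thus held intermediate levels of both genes.

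C3, Il6 and Thbs1 followed the same steps. C3, the central complement protein, read 376, 969, 1643, 1942 and 2316 CPM in ff and 625, 1395, 2170, 2824 and 3685 CPM in GF. Il6, a cytokine, read 194, 313, 359, 401 and 611 CPM in ff and 178, 349, 612, 972 and 1106 CPM in GF. Thbs1, the matrix glycoprotein thrombospondin-1, read 691, 931, 1112, 1470.5 and 1886 CPM in ff and 725, 1323, 2116, 3009 and 4606 CPM in GF. Foxl1, the transcription factor of fibroblasts under the epithelium, went the other way. It read 18.0, 13.8 and 6.98 CPM at sums of 0, 1 and 2 in ff, and 22.7, 15.6 and 6.02 CPM in GF. In the highest class its level rests on 2 ff and 1 GF UMIs, under the floor of 3 UMIs, and at sums of 3 to 4 on 7 ff and 1 GF UMIs. Median UMIs per cell lay between 8830.5 and 10226 over these classes in ff and between 6350 and 7071.5 in GF, with no order by class. The highest class held 78 ff and 74 GF cells. Not all genes stepped up. Grem1 read 178, 259, 486, 449 and 620 CPM in ff and 90.8, 183, 222, 177 and 246 CPM in GF. Cxcl13 read 346 CPM at a sum of 0 and 29.8 CPM in the highest class of GF, and 85.7 and 93.2 CPM in ff. Sfrp2 read 118 and 61.5 CPM in GF, and 71.1 and 102 CPM in ff.

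**Figure D2:**
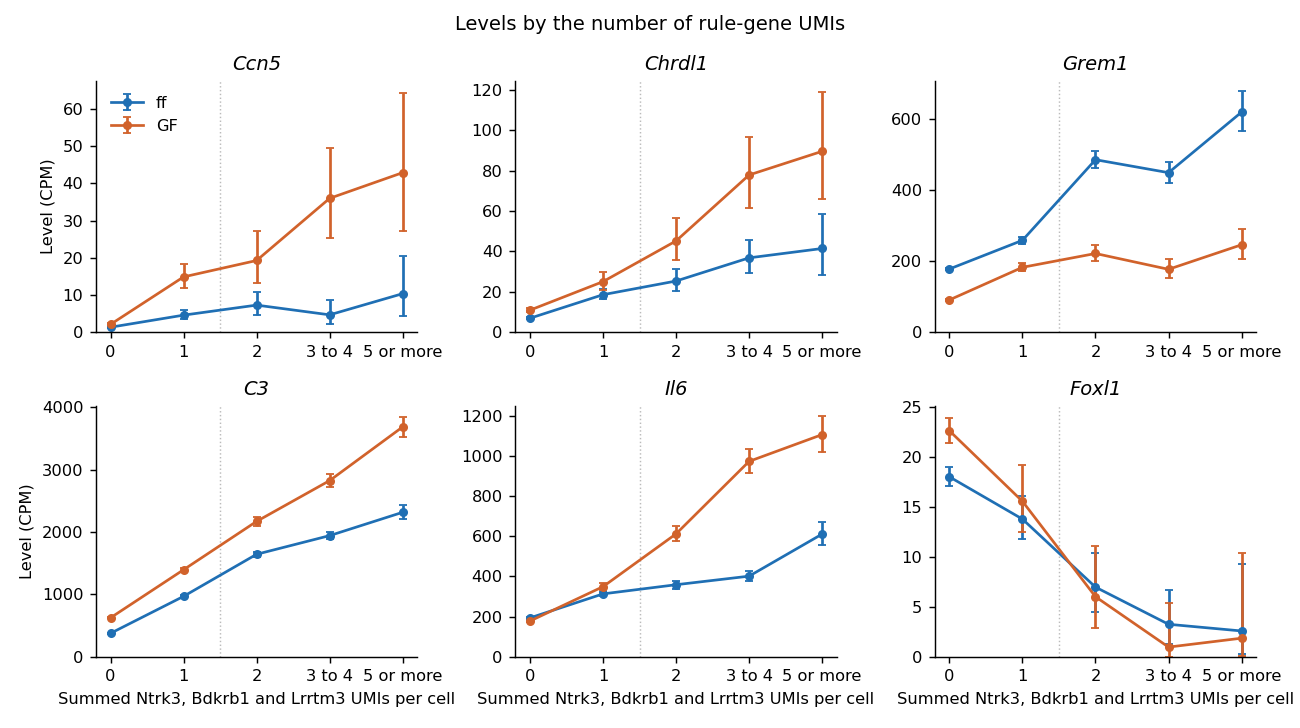
Levels of 6 genes (CPM, linear axis from 0) in cells that met the Ptprc, Pi16 and collagen conditions, by their summed Ntrk3, Bdkrb1 and Lrrtm3 UMIs, for ff (blue) and GF (orange). Bars are 95% exact Poisson intervals and the dotted line is the rule's threshold. Chrdl1, C3 and Il6 step up with the sum in both libraries and Foxl1 is lower at a sum of 2 than at 0.

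The rule-positive cells of the libraries were a different mix of the counted genes. In ff, 52.7% (341 cells) carried Bdkrb1 alone and 16.2% (105 cells) carried Ntrk3. In GF, 23.2% (104 cells) carried Bdkrb1 alone and 50.2% (225 cells) carried Ntrk3. Cells with Lrrtm3 alone made up 12.7% in ff and 13.2% in GF. All 3 genes were found together in 15 ff and 38 GF cells. One counted gene alone made 68.5% of the ff cells and 50.2% of the GF cells rule-positive.

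Chrdl1 and Ccn5 were higher in cells that carried Ntrk3 than in those with Bdkrb1 alone. Chrdl1 stood at 62.6 CPM in the Ntrk3-carrying cells of ff and 16.6 CPM in those with Bdkrb1 alone, and at 86.8 and 48.6 CPM in GF. Ccn5 stood at 10.4 and 3.93 CPM in ff and at 43.1 and 15.3 CPM in GF. For Ccn5 in ff these values rest on 10 and 14 UMIs, and their intervals overlap (5.01 to 19.2 and 2.15 to 6.59 CPM). Cells that carried Bdkrb1 and Lrrtm3 without Ntrk3 held Chrdl1 at 46.1 and 54.1 CPM and Ccn5 at 10.6 and 27.1 CPM in ff and GF, so in ff their Ccn5 level was near that of the Ntrk3-carrying cells.

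Cells with Lrrtm3 alone stood apart by Cxcl13, a chemokine that attracts B cells. It read 311 CPM in ff and 629 CPM in GF, against 22.96 and 79.0 CPM in Ntrk3-carrying cells and 59.5 and 39.6 CPM in cells with Bdkrb1 alone. With Lrrtm3 alone, Ccn5 read 9.85 CPM in ff (7 UMIs) against 4.28 CPM in GF (2 UMIs), and Chrdl1 read 38.0 CPM in ff against 17.1 CPM in GF. These were above the cells with Bdkrb1 alone in ff and below them in GF. Thbs1 was lowest there too, at 767 CPM (ff) and 729 CPM (GF), against 2011 and 3402 CPM in Ntrk3-carrying cells. The rule-positive cells are therefore described as a mixture, and the genes below are read over all of them.

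**Figure D3:**
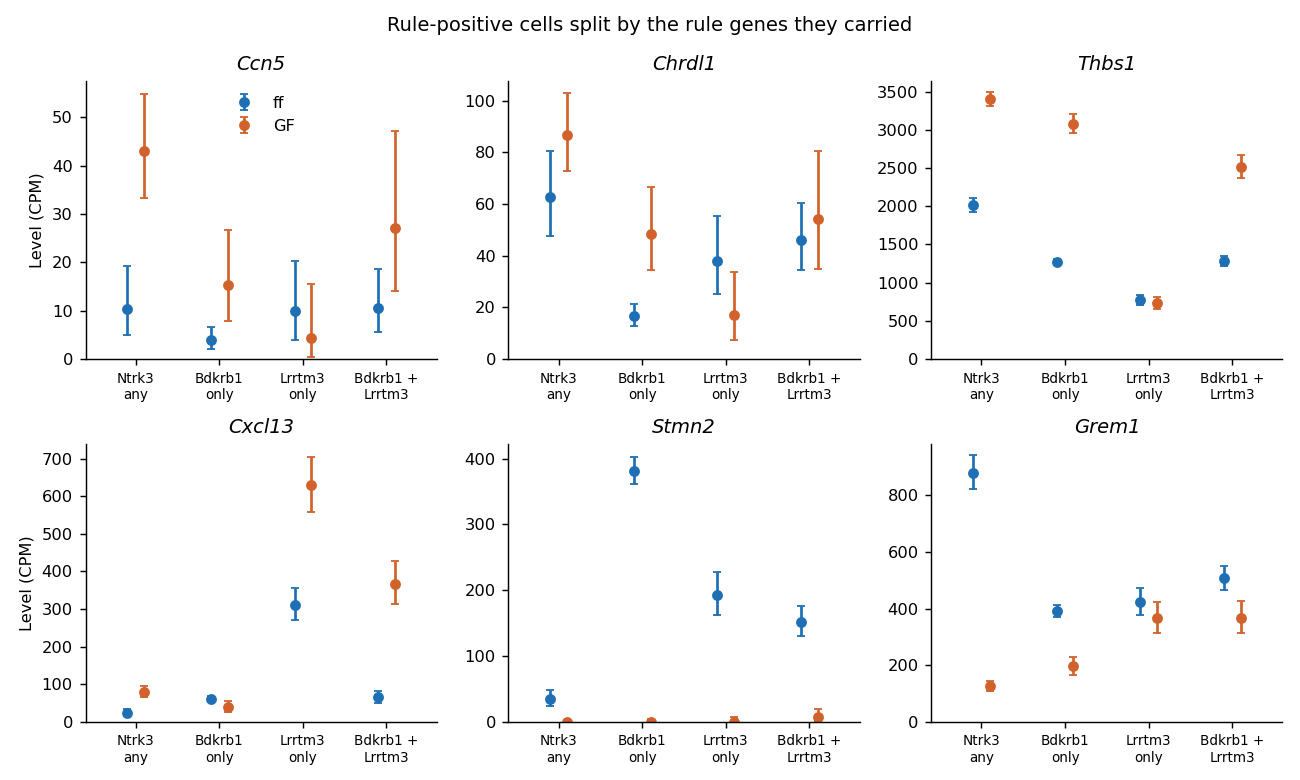
Levels of 6 genes (CPM, linear axis from 0) in rule-positive cells split by the counted genes they carried, for ff (blue) and GF (orange), with 95% exact Poisson intervals. Ccn5 and Chrdl1 were higher in Ntrk3-carrying cells than in cells with Bdkrb1 alone in both libraries, and Cxcl13 was highest in cells with Lrrtm3 alone.

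Genes were next compared between rule-positive cells and the other kept barcodes of the same library. Of 11051 genes with at least 10 expected UMIs in the rule-positive cells of each library, 24 (0.217%) were at least 2-fold higher in ff and 218 (1.97%) at least 2-fold lower. In GF, 117 (1.06%) passed 2-fold upward and 470 (4.25%) downward. In both libraries, 18 (0.163%) were higher and 160 (1.45%) lower. No gene was 2-fold higher in one library and 2-fold lower in the other. The rule used this contrast, so nothing is read from these counts.

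The 18 higher genes were the 3 that the rule counts and 15 others. Among the others were a BMP antagonist, complement genes and receptors, and those described below are part of them. Against only the barcodes that met the Ptprc, Pi16 and collagen conditions, all 18 stayed at least 2-fold higher and the count was 94. With the members chosen after thinning the count was 52. Of the 160 lower genes, 101 were also at least 2-fold lower against those barcodes.

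The secreted BMP antagonist Grem1 was among the leading higher genes. Grem1, which encodes gremlin-1, an antagonist of BMP2 and BMP4, stood at 490 CPM in rule-positive and 173 CPM in other cells of ff, and at 211 and 91.6 CPM in GF. Its log2 ratios were 1.50 and 1.20. Of 9 measured BMP and activin antagonists, Grem1 was among those at least 2-fold higher in both libraries and none was lower in both. Beside this, 0.163% of all measured genes were higher and 1.45% lower in both. The list had a median log2 ratio of 0.11 in ff and 0.34 in GF, beside -0.08 and -0.19 over all measured genes.

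BMP ligands stood on the other side. Of 11 measured BMP, GDF and activin ligands, 3 were at least 2-fold lower in both libraries and none higher. Over all measured genes these shares were 1.45% and 0.163%. The list had a median log2 ratio of -0.51 in ff and -0.68 in GF. Bmp3 stood at 14.5 against 45.8 CPM in ff and at 14.6 against 48.3 CPM in GF. Bmp5 stood at 149 against 342 CPM in ff and at 49.3 against 134 CPM in GF. Bmp7 stood at 26.1 against 68.8 CPM in ff and at 25.7 against 56.4 CPM in GF. Bmp4, the most abundant ligand named here, was at 515 against 738 CPM in ff and 423 against 632 CPM in GF, short of 2-fold.

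WNT ligands and modulators were divided. Rspo3, an R-spondin that strengthens WNT signals, stood at 41.2 against 19.2 CPM in ff and at 46.8 against 20.3 CPM in GF. Wnt5a, a ligand of Foxl1-high fibroblasts, stood at 46.4 against 126.9 CPM in ff and at 43.7 against 91.7 CPM in GF. Wif1, a secreted WNT inhibitor, stood at 7.86 against 29.7 CPM in ff and at 2.48 against 12.5 CPM in GF. Of 10 measured WNT ligands and R-spondins, Rspo3 was the 1 higher and Wnt5a the 1 lower in both libraries. Among all measured genes, 0.163% were higher and 1.45% lower in both. The list had a median log2 ratio of -0.16 in ff and -0.59 in GF. Against only the barcodes that met the Ptprc, Pi16 and collagen conditions it was 0.37 and 0.28, so its sign depended on the comparison cells.

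The classical and alternative complement genes C2 and Cfb were higher over all rule-positive cells. Cfb, complement factor B, stood at 81.8 against 34.2 CPM in ff and at 172 against 78.1 CPM in GF. Other fibroblast sets of ff came close, with 73.5 CPM for the Pi16 set and 76.1 CPM for the Angptl1 and Ackr4 set. Their intervals overlapped that of the rule-positive cells. The Myoc, Gdf10 and Wt1 set of ff held less Cfb (41.8 CPM). Within GF, rule-positive cells exceeded the same sets, which held 128, 137 and 66.2 CPM in that order. C2 stood at 21.5 against 9.24 CPM in ff and at 24.5 against 9.61 CPM in GF. C3 stood at 1826 against 885 CPM in ff and at 2630 against 1383 CPM in GF, with log2 ratios of 1.04 and 0.93. Of 14 measured complement genes, Cfb and C2 were higher in both libraries and C5ar1, a receptor of leukocytes, lower in both. The shares over all measured genes were 0.163% higher and 1.45% lower. Among cells with Bdkrb1 alone neither gene passed 2-fold: the log2 ratios were 0.29 in ff and -0.29 in GF for C2, the latter from 6 UMIs, and 0.59 and 0.89 for Cfb. The median log2 ratio of the list was 0.31 in ff and 0.47 in GF.

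Receptors made up the next group. Ackr4, an atypical receptor that takes up CCL19 and CCL21, stood at 115 against 52.6 CPM in ff and at 112 against 48.4 CPM in GF. Prlr, the prolactin receptor, stood at 70.4 against 27.8 CPM in ff and at 70.7 against 29.0 CPM in GF. Prlr and Ackr4 were nearly equal between the libraries. Some of the other fibroblast sets held these genes at like levels or above. Ackr4 read 174 CPM in the Pi16 set and 133 CPM in the Myoc, Gdf10 and Wt1 set of ff, and Prlr read 61.4 CPM in the Angptl1 and Ackr4 set of ff and 66.2 CPM in the Myoc, Gdf10 and Wt1 set of GF.

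Other higher genes had varied roles. Rcan1, a regulator of the phosphatase calcineurin, stood at 284 against 133 CPM in ff and at 748 against 219 CPM in GF. Srxn1, sulfiredoxin, which repairs oxidised peroxiredoxins, stood at 161 against 68.0 CPM in ff and at 272 against 112 CPM in GF. Ces1d, a carboxylesterase, stood at 707 against 339 CPM in ff and at 1213 against 406 CPM in GF. Ism1, a secreted isthmin, had log2 ratios of 1.36 and 1.35, and Ifi207, of the interferon-inducible p200 family, 1.04 and 1.86. The other fibroblast sets held several of these at similar or higher levels. In ff, Rcan1 read 248 to 271 CPM and Srxn1 152 to 158 CPM over the 3 sets, Ces1d read 763 CPM in the Angptl1 and Ackr4 set, and Ifi207 read 76.4 to 93.9 CPM against 58.8 CPM in rule-positive cells. In GF, rule-positive cells stood above all 3 sets for these 4 genes, with Ces1d at 1108 CPM in the Myoc, Gdf10 and Wt1 set. The predicted genes Gm12022 and G530011O06Rik were also higher, with log2 ratios of 1.62 and 1.82 and of 1.26 and 1.55.

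The windows of 250 bases before the start sites show what letters these genes carry where the data show a shared direction. RefSeq windows on GRCm38.p6 were matched for 7 of 17 genes looked up, the 5 label genes and the 12 leading higher genes. Capitals mark matches on either strand. The letters searched were TGANTCA for AP-1 and TGACGTCA for the cyclic AMP response element. TATAAA was searched for the TATA box. The CCAAT box was searched by its own letters. No matches overlap in the windows shown. The windows, read 5' to 3' on the gene's strand, are Lrrtm3 at chr10:64090256-64090505 (minus), Grem1 at chr2:113758649-113758898 (minus), Rcan1 at its inner start at chr16:92400079-92400328 (minus) and Srxn1 at chr2:152105274-152105523 (plus).
Lrrtm3: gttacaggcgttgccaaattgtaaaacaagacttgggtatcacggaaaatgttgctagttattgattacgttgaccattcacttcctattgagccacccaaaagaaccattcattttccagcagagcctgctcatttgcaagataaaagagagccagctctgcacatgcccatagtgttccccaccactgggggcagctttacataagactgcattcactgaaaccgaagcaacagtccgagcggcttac
Grem1: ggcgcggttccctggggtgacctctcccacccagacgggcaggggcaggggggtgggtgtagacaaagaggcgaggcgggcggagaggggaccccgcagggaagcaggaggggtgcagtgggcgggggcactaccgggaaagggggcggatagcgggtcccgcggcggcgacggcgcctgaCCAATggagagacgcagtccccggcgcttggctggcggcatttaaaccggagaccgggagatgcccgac
Rcan1: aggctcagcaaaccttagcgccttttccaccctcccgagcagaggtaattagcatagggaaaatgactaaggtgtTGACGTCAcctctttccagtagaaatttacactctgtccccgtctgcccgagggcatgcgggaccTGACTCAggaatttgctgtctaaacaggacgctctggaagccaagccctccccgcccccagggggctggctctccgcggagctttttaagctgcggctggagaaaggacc
Srxn1: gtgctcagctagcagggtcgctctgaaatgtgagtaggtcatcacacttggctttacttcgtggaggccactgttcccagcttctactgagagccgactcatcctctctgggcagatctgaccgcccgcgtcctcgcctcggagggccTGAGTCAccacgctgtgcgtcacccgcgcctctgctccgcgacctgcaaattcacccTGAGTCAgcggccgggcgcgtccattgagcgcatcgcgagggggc

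Lrrtm3, the 1 counted gene with a window, held none of these motifs. An AP-1 match was found in a window of 3 of the 6 leading genes matched (Rcan1, Prlr and Srxn1). Rcan1 and Prlr have more than 1 window, and not all of theirs held a match. By window and not by gene, 6.75% of all 32851 windows held a match, so the count of genes is not set against it. Srxn1 held 2 such matches, and the inner Rcan1 window held 1 beside a cyclic AMP response element, a motif found in 1.55% of all windows. The TATA box was found in 12.4% of all windows and CCAAT in 33.8%. A match is a description of the letters and not a site of binding.

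Contractile genes were low in rule-positive cells. Of 18 measured contractile and actin genes, 7 were at least 2-fold lower in both libraries and none higher. Over all measured genes these shares were 1.45% and 0.163%. The list had a median log2 ratio of -0.80 in ff and -0.75 in GF. Acta2, smooth muscle actin, stood at 86.5 against 363 CPM in ff and at 160 against 385 CPM in GF. Tagln, transgelin, stood at 75.0 against 319 CPM in ff and at 115 against 325 CPM in GF. Myh11, smooth muscle myosin, stood at 17.0 against 77.2 CPM in ff and at 42.2 against 107 CPM in GF. The other 4 were Actg2, Cnn1, Lmod1 and Mylk. At least 2 UMIs of the 6 smooth muscle markers were found in 21.0% of rule-positive and 25.5% of other cells in ff, and in 15.6% and 18.6% in GF, at each cell's own depth.

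Genes of Foxl1-high fibroblasts were low as well. A list of 12 such markers summed to 596 against 1316 CPM in ff and to 435 against 803 CPM in GF. Sox6, a transcription factor on that list, stood at 12.4 against 58.2 CPM in ff and at 11.2 against 34.1 CPM in GF. Ednrb, the endothelin B receptor, stood at 18.7 against 78.4 CPM in ff and at 28.2 against 68.0 CPM in GF. A list of 10 adventitial or submucosal markers summed to 2097 against 1548 CPM in ff and to 1963 against 1857 CPM in GF. The adventitial sum was thus above the other barcodes in both libraries even though Pi16-rich cells were barred. Grem1, named above, is on that list. A list of 8 lamina propria markers was also held, at 3419 against 4452 CPM in ff and at 5104 against 5757 CPM in GF.

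Neurotrophin and kinin partners of the counted receptors were looked up as well. Of 8 measured neurotrophin and GDNF-family genes besides Ntrk3, none was higher in both libraries and Gdnf was lower in both. Of 10 measured kinin and angiotensin genes besides Bdkrb1, none was higher and 1 was lower in both. Among all measured genes, 0.163% were higher and 1.45% lower in both. A count of none higher in lists of this size is near that share, and nothing is read from it. Ntf3, the ligand of TrkC, stood at 12.9 against 22.99 CPM in ff and at 7.75 against 17.5 CPM in GF. Bdkrb2, the constitutive bradykinin receptor, stood at 64.5 against 78.5 CPM in ff and at 93.6 against 93.1 CPM in GF. Agt, the angiotensin precursor, stood at 30.2 against 61.8 CPM in ff and at 10.5 against 30.5 CPM in GF. The rule counted Bdkrb1, so its ratio was set by the choice of cells and is not compared with that of Bdkrb2.

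Several secreted signals were more than 2-fold higher in GF only, which was not tested as a difference. Il6 stood at 404 against 222 CPM in ff and at 809 against 234 CPM in GF. Lif, an IL-6-family cytokine, stood at 8.65 against 5.78 CPM in ff and at 24.8 against 7.51 CPM in GF. Ccl11, eotaxin, stood at 547 against 349 CPM in ff and at 2350 against 741 CPM in GF. Each was also higher in ff, short of 2-fold.

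Thbs1, Adamts4, Vegfd and Kcne4 showed the same form. Thbs1 stood at 1327 against 819 CPM in ff and at 2815 against 1013 CPM in GF. Adamts4, an aggrecan-cleaving protease, stood at 424 against 259 CPM in ff and at 1277 against 412 CPM in GF. Vegfd, a lymphatic growth factor, stood at 66.7 against 39.0 CPM in ff and at 122 against 41.2 CPM in GF. Kcne4, a potassium channel subunit, stood at 12.1 against 7.43 CPM in ff and at 58.9 against 13.96 CPM in GF. In the opposite case, Angptl1 stood at 30.7 against 9.07 CPM in ff and at 10.9 against 8.58 CPM in GF.

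Immune and lymphatic genes led the lower side. Jchain, the joining chain of plasma cell antibodies, stood at 5.35 against 220.7 CPM in ff and at 1.24 against 130.5 CPM in GF. Cd74, the invariant chain of MHC class II, stood at 4.25 against 106 CPM in ff and at 4.65 against 383 CPM in GF. Lyve1, a lymphatic endothelial receptor, stood at 0.786 against 13.1 CPM in ff and at 0.310 against 16.4 CPM in GF. The rule barred barcodes with Ptprc, so the leukocyte genes are not independent of the choice of cells. With the other side limited to barcodes that met the Ptprc, Pi16 and collagen conditions together, the log2 ratio of H2-Aa changed from -3.59 to -0.50 in ff and from -4.80 to -1.59 in GF.

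**Figure D4:**
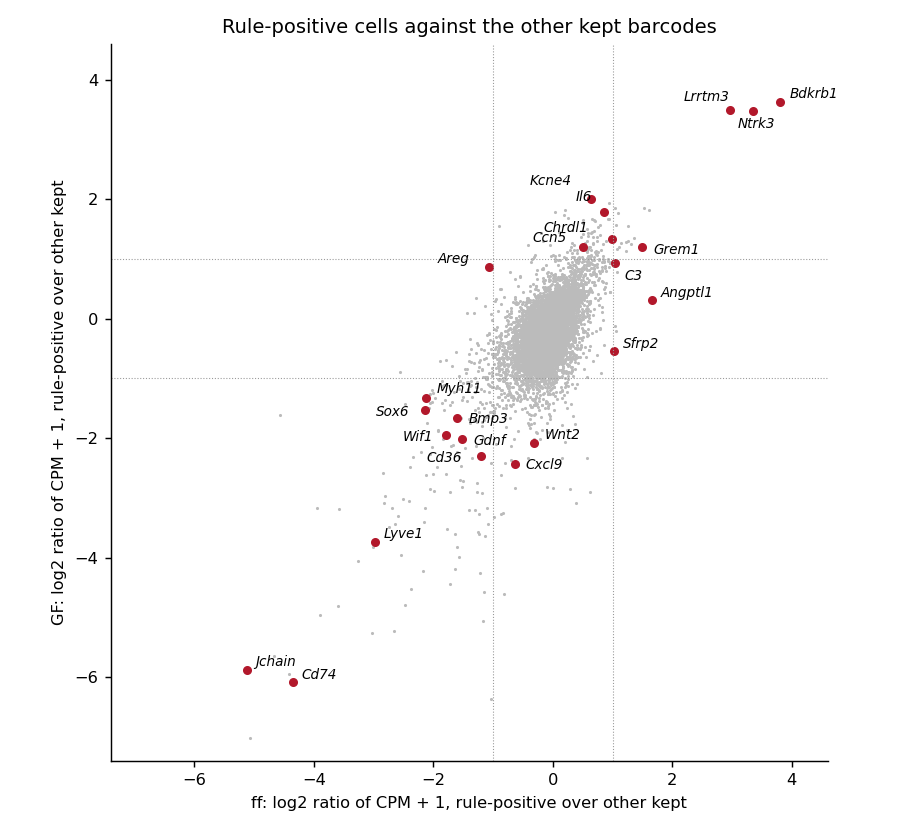
Log2 ratio of CPM + 1 in rule-positive cells over the other kept barcodes, in ff (x) and GF (y), for the 11051 measured genes. Grey points are genes, red points are named genes, and dotted lines mark 2-fold. The 3 counted genes lie alone at the upper right, and 160 genes lie below the 2-fold line in both libraries.

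Other lists held little that crossed 2-fold in both libraries. Of 22 measured immediate early genes, 13 heat shock genes, 22 cholesterol synthesis genes and 24 interferon-stimulated genes, none was at least 2-fold higher or lower in both. Over all measured genes 0.163% were higher and 1.45% lower. A count of none in lists of this size is near those shares, and nothing is read from it. Median log2 ratios were 0.13 in ff and 0.07 in GF for immediate early genes and -0.17 and -0.09 for heat shock genes, which are known to respond to tissue dissociation. Among 21 measured collagens the medians were -0.07 and -0.20.

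Within rule-positive cells, GF was then compared with ff. Of 9793 genes with at least 50 UMIs over the rule-positive cells of both libraries, 181 (1.85%) were at least 2-fold higher in GF and 352 (3.59%) at least 2-fold lower. Of these 533 genes, 185 were also at least 2-fold different in the same direction in the other kept barcodes. The share of all 9793 genes that differed so in the other barcodes is not given here, so nothing is read from this overlap. The cells' mix of counted genes differed as given above, so genes are given beside their values or ratios in the other barcodes.

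The genes with the highest ratios were nearly absent from ff in both cell sets. Ifi202b, of the interferon-inducible p200 family, had 0 UMIs in the rule-positive cells of ff and stood at 162 CPM in GF, at least 344-fold higher when the ff level is set at the floor of 3 UMIs in these cells. Gbp2b, a guanylate-binding protein, likewise had 0 UMIs in ff and 33.8 CPM in GF, at least 71.6-fold higher. C1rb and C1s2, copies of complement proteases, stood at 0.157 and 0.629 CPM in ff and at 156 and 142 CPM in GF. All 4 were similarly far apart in the other barcodes, with log2 ratios of 5.84, 5.46, 6.51 and 6.31. These genes have close copies in the genome, so the split of reads between copies is uncertain, and strain differs between the libraries.

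Other high genes also moved in the other barcodes. Ucp2, a mitochondrial carrier, read 12.6 CPM in ff against 136 CPM in GF, with log2 ratios of 3.34 in rule-positive and 2.22 in other cells. Fst, follistatin, an activin antagonist, stood at 5.98 and 69.1 CPM, with log2 ratios of 3.33 and 1.70. Nr1d1, a repressor of the circadian clock, stood at 6.45 and 60.4 CPM, with log2 ratios of 3.04 and 2.69.

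Stmn2 was the furthest apart on the low side. It encodes stathmin-2, a microtubule regulator best known in neurons, and read 267 CPM in ff against 0.930 CPM (3 UMIs) in GF. In the other barcodes it read 266 CPM in ff against 12.7 CPM in GF. Within the ff cells it ranged from 34.4 CPM with Ntrk3 to 382 CPM with Bdkrb1 alone, and the neuron list summed to 4.09 CPM over the rule-positive cells of ff, below the 6.77 CPM of the other barcodes. Its part in the result was not tested.

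Ifit1, Trim12a, Fam111a and Cck were also low in GF. Ifit1, an interferon-induced gene, stood at 16.7 CPM in ff and had 0 UMIs in GF, at least 17.9-fold lower at the floor of 3 UMIs. Its log2 ratio in the other barcodes was -0.67. Trim12a had 0 UMIs in GF and 26.1 CPM in ff, at least 28.1-fold lower, and Fam111a stood at 70.9 and 4.65 CPM. Cck, the peptide cholecystokinin, read 31.8 CPM in ff against 2.48 CPM in GF. In the other barcodes these 3 were low in GF too, at 26.8 against 0.130 CPM for Trim12a, 42.3 against 7.56 CPM for Fam111a and 14.2 against 1.48 CPM for Cck.

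Some ratios differed between rule-positive and other cells. Areg, amphiregulin, an EGF receptor ligand, had a GF over ff log2 ratio of 1.48 in rule-positive and -0.46 in other cells. Mcoln2, a lysosomal channel, had 2.75 and 1.01, and Lipg, endothelial lipase, 1.92 and 0.31. Wnt2 had -1.36 and 0.41, and Neurl3 had -1.74 and 0.52. Cxcl9, an interferon-induced chemokine, read 15.9 CPM in ff against 7.44 CPM in GF in rule-positive cells, and 25.3 against 44.4 CPM in the other barcodes. These differences have no replicate check. For Cxcl9, 98 of the 101 UMIs in ff came from 8 cells with Bdkrb1 alone, so its level is not that of the rule-positive cells in general.

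Of the label genes, Ntrk3, Ccn5 and Chrdl1 had the higher ratios. Ntrk3, by which cells were chosen, had a GF over ff log2 ratio of 2.12 in rule-positive and 1.60 in other cells, Ccn5 1.93 and 1.24, and Chrdl1 0.99 and 0.65. Lrrtm3 had 0.67 and 0.54, and Bdkrb1 0.05 and 0.22. Both were also counted by the rule, so their ratios in rule-positive cells are a description that depends on depth and threshold. The larger share of Ntrk3-carrying cells in GF thus went with a higher Ntrk3 level over all other barcodes as well.

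**Figure D5:**
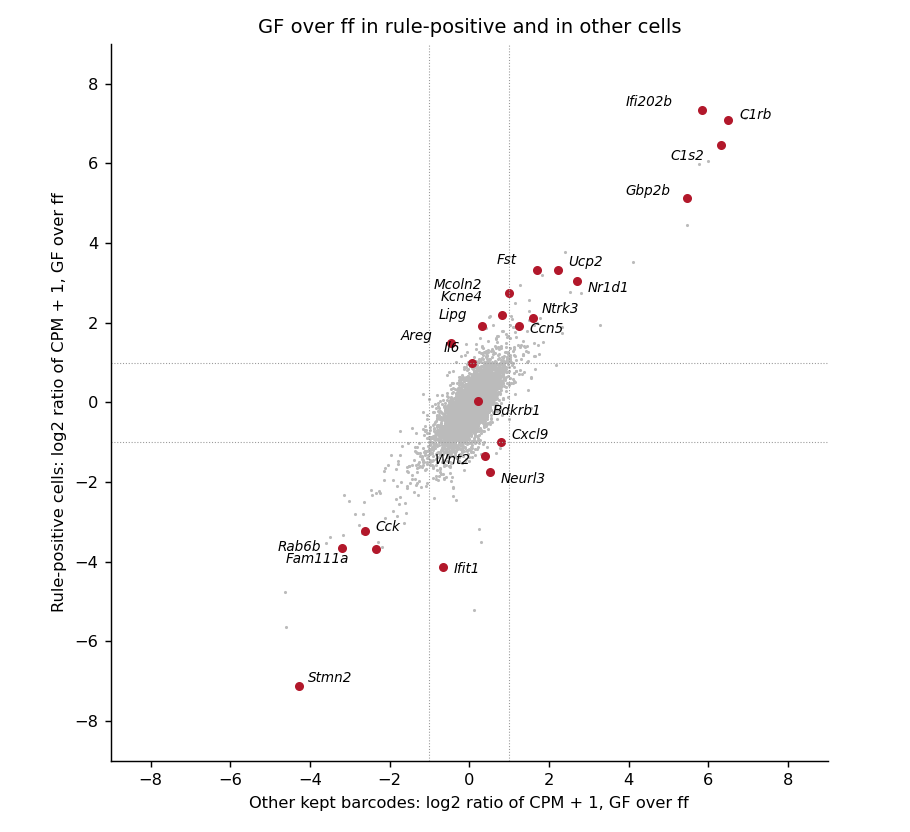
Log2 ratio of CPM + 1, GF over ff, in rule-positive cells (y) against the other kept barcodes (x), for 9793 genes. Grey points are genes, red points are named genes, and dotted lines mark 2-fold. Ifi202b, C1rb, C1s2 and Gbp2b are high and Stmn2 is low in both cell sets, while Areg, Wnt2 and Neurl3 have opposite signs.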

How the data were processed

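Both tables were deposited by the authors as raw UMI counts per Ensembl gene and cell barcode, from 10x Genomics 3' v3.1 libraries per the labels' protocols. Cell Ranger 6.0.0 and the mm10 build are named in the submitters' processing notes. The annotation release, and the filter that set which barcodes were deposited, are not given in the sources used here. Symbols matched 32158 of 32285 gene identifiers.

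The kept barcodes held 118276886 UMIs in ff and 102879042 in GF, of which the rule-positive cells held 6359311 and 3225734. UMIs were summed over cells and scaled to CPM. Log2 ratios were taken after adding 1 CPM. Levels carry 95% exact Poisson intervals, shares Clopper-Pearson intervals and ratios conditional binomial intervals. They cover counting error only. Called means at least 2-fold. The expected UMIs of a gene come from its level over all kept barcodes of the library. Cells are not replicates, and no test was made. Scrublet was run in scanpy 1.11.5 and used only as an alternative.

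The members and the 38 gene lists were chosen with earlier results of these data known. Named genes were the label and rule genes, the 12 highest and 12 lowest by mean ratio among genes past 2-fold in both libraries, the 10 highest and lowest for GF over ff, the 5 highest and lowest by the difference of that ratio from the other barcodes, and up to 4 members per list. Genes named in the text beyond these, and the subsets compared for Cxcl13, Thbs1 and Stmn2, were chosen after their values were seen. A few of the genes so chosen are left out of the text. The ranking passed over mitochondrial, ribosomal, antibody, T cell receptor, haemoglobin and sex-linked genes, predicted gene models and the rule genes. The calculations were tested on simulated data. Alternatives changed the rule, the comparison cells, depth, filters, doublets, scaling and pseudocount; 2 of them, limited to cells carrying Ntrk3 or Bdkrb1 alone, were chosen after seeing the data.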

Additional observations from a re-analysis of the deposited data

Results flagged for a closer look

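Areg stood on opposite sides in the 2 libraries, and Fam111a did by its ratios alone. Areg, an EGF receptor ligand, was lower in rule-positive than in other cells of ff (log2 ratio -1.08, 16.2 against 35.3 CPM) and higher in GF (0.87, 47.1 against 25.3 CPM). Fam111a, a protease linked to viral restriction, was higher in ff (0.73, 70.9 against 42.3 CPM) and lower in GF (-0.60, 4.65 against 7.56 CPM). With 1 library per group, neither difference was tested. The lower GF value of Fam111a rests on 15 UMIs, and its interval (2.60 to 7.67 CPM) holds the level of the other cells.

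Barcodes with a Ptprc UMI lie outside the rule, yet some had a sum of at least 2 of Ntrk3, Bdkrb1 and Lrrtm3. Their share was 3.09% of 162 in ff and 1.53% of 1311 in GF. Median depth was 7169 UMIs in ff and 2907 UMIs in GF, against 9457 and 6823.5 UMIs in rule-positive cells. After thinning to 4000 UMIs the shares were 0.794% and 1.98%, the first from 1 of 126 barcodes.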

How the results depend on the processing

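With 1 library per group, no replicate could be left out. No paired analysis was possible because each group has 1 library. Below, values are ff then GF. The share of rule-positive cells was 14.8% and 8.18% with a sum of at least 1, 2.27% and 1.47% with at least 3, 2.12% and 2.28% after thinning to 4000 UMIs (the order reversed), 6.19% and 4.80% of barcodes that met the other conditions, and 3.61% in GF under the stricter cell filter. The 18 genes higher in both libraries became 30 with a sum of at least 3, 52 after thinning, 94 against only barcodes that met the other conditions, 29 under median-of-ratios scaling, 9 with a pseudocount of 10 CPM, 10 with a higher minimum of UMIs, 70 in Ntrk3-carrying cells and 4 in cells with Bdkrb1 alone. The 160 lower genes became 29 with a pseudocount of 10 CPM, 53 with the higher minimum and 72 with Bdkrb1 alone. For GF over ff, the 181 higher genes became 90 with that pseudocount and 90 with the higher minimum. The 352 lower genes became 159 after thinning, 105 with that pseudocount, 125 with the higher minimum and 186 in Ntrk3-carrying cells. The log2 ratio of Ccn5 was 1.61 in GF with a sum of at least 3, 1.78 in GF after thinning, 1.49 and 2.78 against barcodes that met the other conditions, 0.81 in GF with a pseudocount of 10 CPM, 1.07 and 1.77 in Ntrk3-carrying cells, and -0.14 and 0.34 with Bdkrb1 alone. That of Chrdl1 was 1.27 and 1.71 with a sum of at least 3, 1.60 and 1.59 after thinning, 1.77 and 2.27 against barcodes that met the other conditions, 0.71 and 1.09 with the pseudocount of 10 CPM, 1.98 and 1.79 in Ntrk3-carrying cells, and 0.12 and 0.97 with Bdkrb1 alone. For single genes and list medians, 2943 of the recomputed values moved by less than their counting error, 1494 by more, and 2 changed sign: Cxcl9 for GF over ff was 1.85 in Ntrk3-carrying cells (4 against 0 UMIs, a ratio set by the pseudocount that shows no change of side), and C2 in GF was -0.29 with Bdkrb1 alone. The causes were not tested, beyond the fewer cells and genes that some alternatives hold. Depth limits low genes: a floor of 3 UMIs in rule-positive cells is 0.472 CPM in ff and 0.930 CPM in GF.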

Other observations

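Rule-positive cells held more of some other fibroblast genes in both libraries. Stc2, the secreted hormone stanniocalcin-2, stood at 23.9 against 11.98 CPM in ff and at 54.9 against 16.6 CPM in GF. Il33, an alarmin, stood at 92.5 against 64.5 CPM in ff and at 204 against 86.0 CPM in GF. Slit3, an axon guidance ligand, stood at 248 against 162 CPM in ff and at 434 against 210.0 CPM in GF. Has1, a hyaluronan synthase, stood at 915 against 535 CPM in ff and at 2486 against 1261 CPM in GF. In ff all 4 were short of 2-fold, and in GF Has1 was too.

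Cd36, a fatty acid transporter, was lower in both, at 17.9 against 42.8 CPM in ff and 5.27 against 29.9 CPM in GF. Efnb2, ephrin-B2, stood at 30.5 against 65.7 CPM in ff and at 18.0 against 56.9 CPM in GF. Adamdec1, a protease of lamina propria fibroblasts, stood at 1395 against 2625 CPM in ff and at 1242 against 3066 CPM in GF.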
